A study of Mus musculus with 5 samples.

Results

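The extracellular proteases of the ovary and the inhibitors that hold them in check were followed in mouse granulosa cells after an ovulatory stimulus. The set was a fixed list of 44 gene symbols. It covered 7 ADAMTS proteases, 4 ADAM proteases, 8 matrix metalloproteinases (MMPs), their 4 tissue inhibitors (TIMPs) and 3 genes of plasminogen activation. It further held 6 serpins, the cathepsins with legumain and cystatin C (8 genes), and 4 other secreted proteases. Of these, 41 had at least 1 probe set annotated with their symbol alone, among 18194 genes with such a probe set on the array, and Adamts2, Mmp15 and Serpine2 were not analysed here. The values of each gene are from its brightest probe set (highest mean log2 intensity over the arrays), and intensities are compared between arrays, never between genes.

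Cells came from mice given equine chorionic gonadotropin (eCG) for 48 h, which drives follicle growth, followed by human chorionic gonadotropin (hCG) to mimic the surge of luteinizing hormone. The knockout carried Cyp19-cre, a Cre transgene under a promoter active in granulosa cells, with floxed alleles of the transcription factor genes Cebpa and Cebpb (CEBPα/β fl/fl fl/fl). Knockout cells were collected 4, 8 and 24 h after hCG and wild-type cells 8 and 24 h after hCG. Age was 23 days for the 4 and 8 h arrays and 24 days for those at 24 h. Each of the 5 groups was a single Affymetrix array. How many animals gave the cells of an array is not stated in the labels.

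Ovulation requires the follicle wall to be opened and the matrix around the oocyte to be remodelled, and the ruptured follicle is then rebuilt into a corpus luteum. ADAMTS proteases cleave proteoglycans such as versican, MMPs cleave collagens and other matrix proteins, and plasminogen activators turn plasminogen into the broad protease plasmin. TIMPs block MMPs and several ADAM and ADAMTS proteases, most serpins block serine proteases, and cystatins block cysteine cathepsins. Adamts1 and Ctsl are known as genes induced by the ovulatory surge through the progesterone receptor.

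With 1 array per group no difference has a replicate check, and no p-value is given. A gene was counted as higher or lower at a difference of 2-fold or more (1 on the log2 scale), provided that its brighter value reached a floor of 22, the 40th percentile of all intensities. With the dimmer value under that floor, the floor took its place and the fold is written as "at least". The deleted genes were lower in the knockout, Cebpa by at least 31.1-fold at 8 h and 9.26-fold at 24 h, and Cebpb by 6.60-fold and 46.8-fold. Cebpb signal remained in the knockout at 8 h, at 1127 against 7436 in wild type, and was 85 against 3976 at 24 h. The knockout array at 4 h was on another scale, with a median intensity of 54 against 31 or 32 on the other 4 arrays. Comparisons with it use quantile-scaled values, with the counts on the deposited scale given beside them. Of 9 granulosa markers with a probe set, all were above the floor on every array, with a summed intensity of 38072 to 54542 on the 8 and 24 h arrays.

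**Figure D1:**
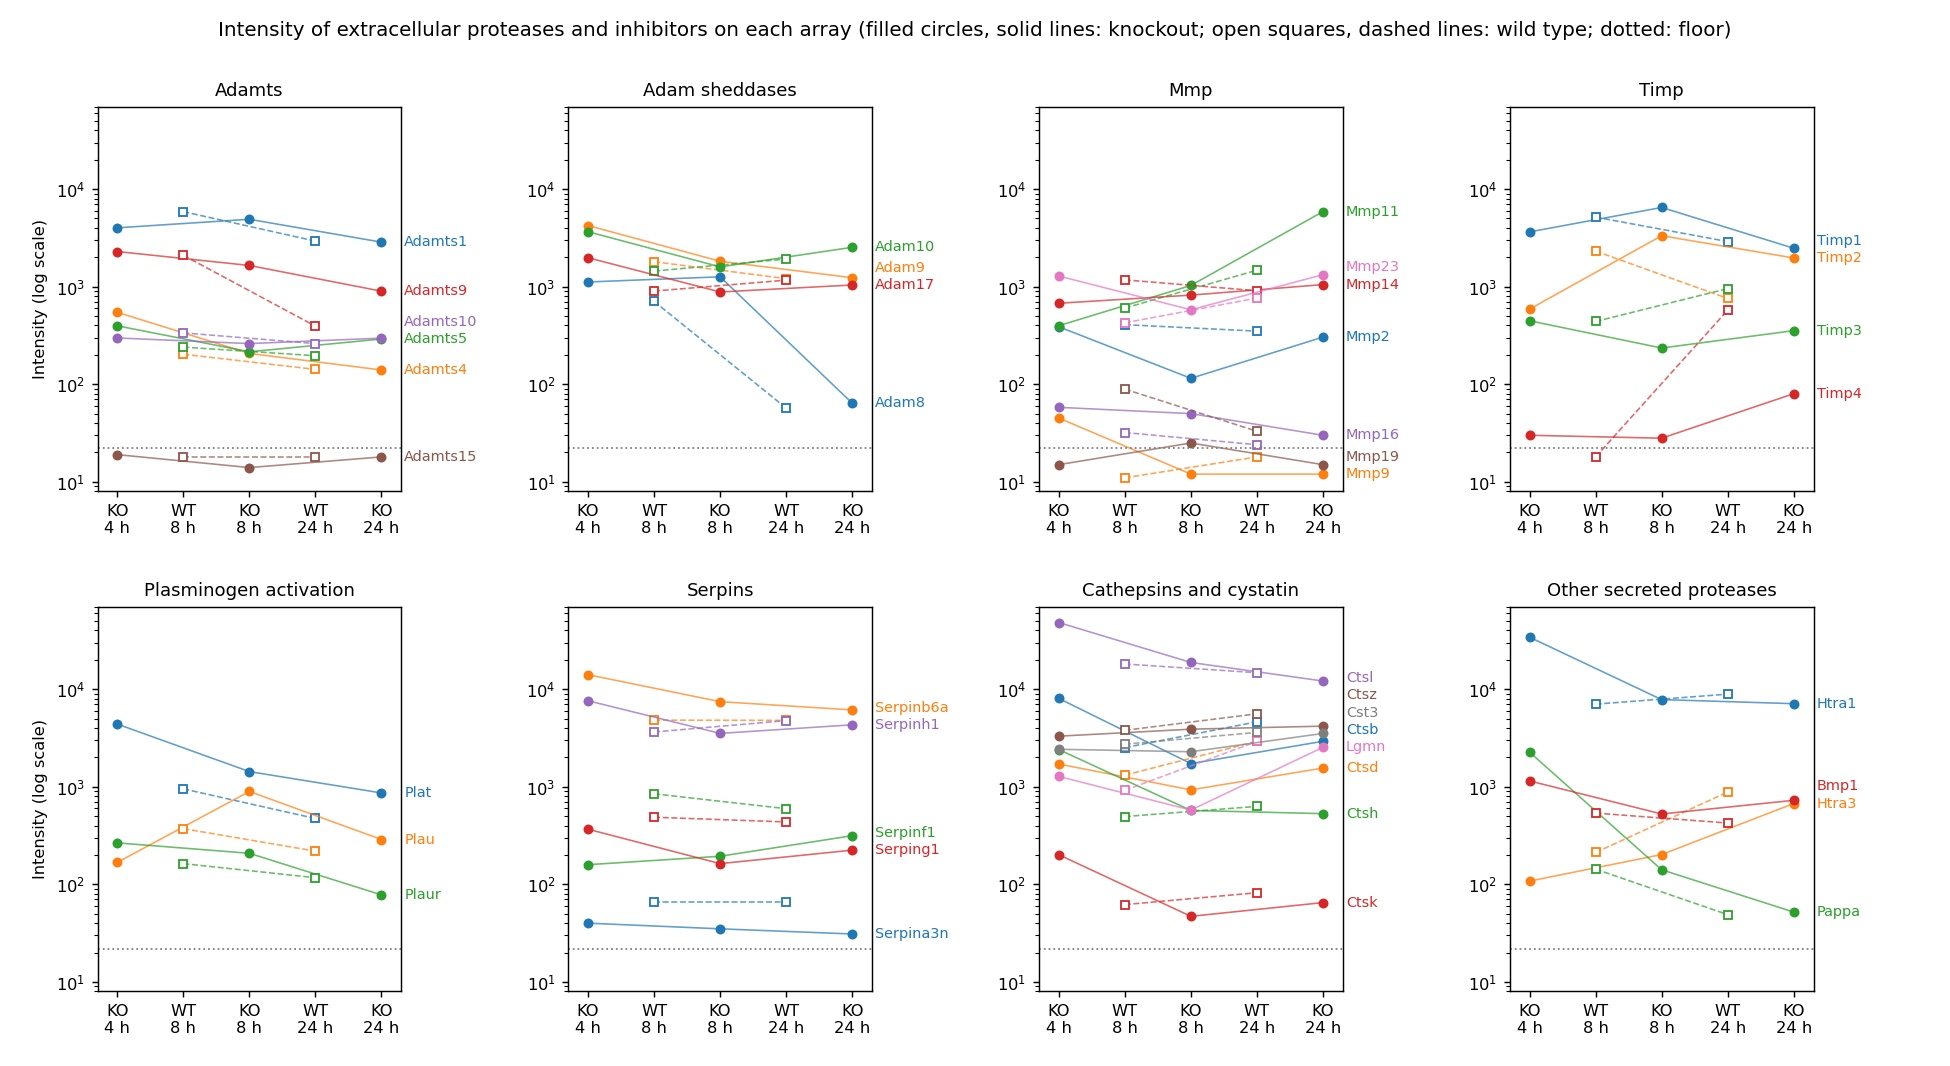
Intensity (log scale) of the 41 genes on each of the 5 arrays, by class; filled circles and solid lines are the knockout at 4, 8 and 24 h, open squares and dashed lines the wild type at 8 and 24 h, and the dotted line is the floor of 22. Adam8 was at 57 and 64 on the 24 h arrays and at 707 and 1262 on the 8 h arrays, and Timp4 reached 574 on the wild-type array at 24 h alone.

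At 8 h after hCG, about the time when the follicle prepares to rupture, the knockout had less signal for a pair of MMPs and a pair of serpins and more for the urokinase gene Plau. Of 39 genes at or above the floor on either array, 4 were lower in the knockout and 1 was higher. Across all 12924 genes tested, 4.05% were lower and 1.58% higher. The 5 genes make 12.8% of the list, against 5.63% of all genes in either direction, and the list was drawn up with results of these arrays known. The median log2 difference of the list was -0.03 and that of all genes -0.01.

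Mmp2, a gelatinase that cleaves basement membrane collagen, stood at 408 in wild type and at 115 in 8 h knockout cells, 3.55-fold lower. The other probe set of Mmp2 gave 374 and 100. Mmp19, an MMP of the periovulatory follicle, was 89 in wild-type and 25 in knockout cells, 3.56-fold lower and close to the floor in the knockout. The other Mmp19 probe set gave 31 and 20, a log2 difference of -0.63 that did not reach 2-fold. Mmp2 and Mmp19 were the MMPs apart at 8 h, while Mmp11, Mmp14, Mmp16 and Mmp23 differed by log2 values of -0.52 to 0.77.

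Serpinf1 encodes pigment epithelium-derived factor, a serpin that is not itself a protease inhibitor. At 8 h its intensity was 847 in wild-type and 194 in knockout cells, 4.37-fold lower, and 534 and 164 on another probe set. Serping1, the C1 inhibitor of the complement and contact systems, was 487 and 163, 2.99-fold lower. The antichymotrypsin-like serpin Serpina3n was 66 and 35, a log2 difference of -0.92 that did not reach 2-fold. Serpinb6a (4813 and 7447) lay above wild type by 0.63, and Serpinh1, a collagen chaperone of the serpin fold, was nearly level at 3640 and 3522.

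All 3 genes of plasminogen activation lay above wild type in the knockout at 8 h, and Plau passed 2-fold. Plau was 372 in wild-type and 895 in knockout cells, 2.41-fold higher, and its second probe set gave 77 and 163. Plat, tissue plasminogen activator, was 951 and 1430, a log2 difference of 0.59. Plaur, the urokinase receptor that holds the enzyme at the cell surface, was 163 and 208, a difference of 0.35. On the probe sets used, none of the ADAMTS, ADAM, TIMP, cathepsin or other secreted protease genes passed 2-fold at this time. Adamts1 was 5871 in wild-type and 4904 in knockout cells, and Ctsl 18123 and 18776. A dimmer second probe set of Ctsl, at 565 and 166, was lower in the knockout by 1.77 on the log2 scale. For Ctsb, a dimmer probe set at 971 and 468 was lower by 1.05, and its other probe sets did not pass 2-fold.

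Markers of other cell types moved on the same 8 h arrays. Of 15 stroma and smooth muscle markers 14 were lower in the knockout and none higher, with a summed intensity of 30044 in wild type and 6636 in the knockout. All 15 had values above the floor on both arrays. Of 12 endothelial markers above the floor 10 were lower, with sums of 2565 and 1151, and Vwf was under the floor on every array. Leukocyte markers had sums of 1720 and 1138, with 4 of 15 lower and 1 higher, and theca markers 6593 and 3545, with 3 of 6 lower. Tcf21, at 533 and 60, is in both the stroma and the theca list and is counted in each, here and below. Granulosa sums were 41167 in wild-type and 38072 in knockout cells, with 1 of 9 markers lower (Fst, 5049 and 2358). Without Inha (16632 and 20053) these sums were 24535 and 18019. Mmp2, Mmp19, Serpinf1 and Serping1 were lower beside these lists, and the part of other cells in their difference was not tested. In such bulk samples fewer cells of a type and less RNA per cell cannot be told apart.

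**Figure D2:**
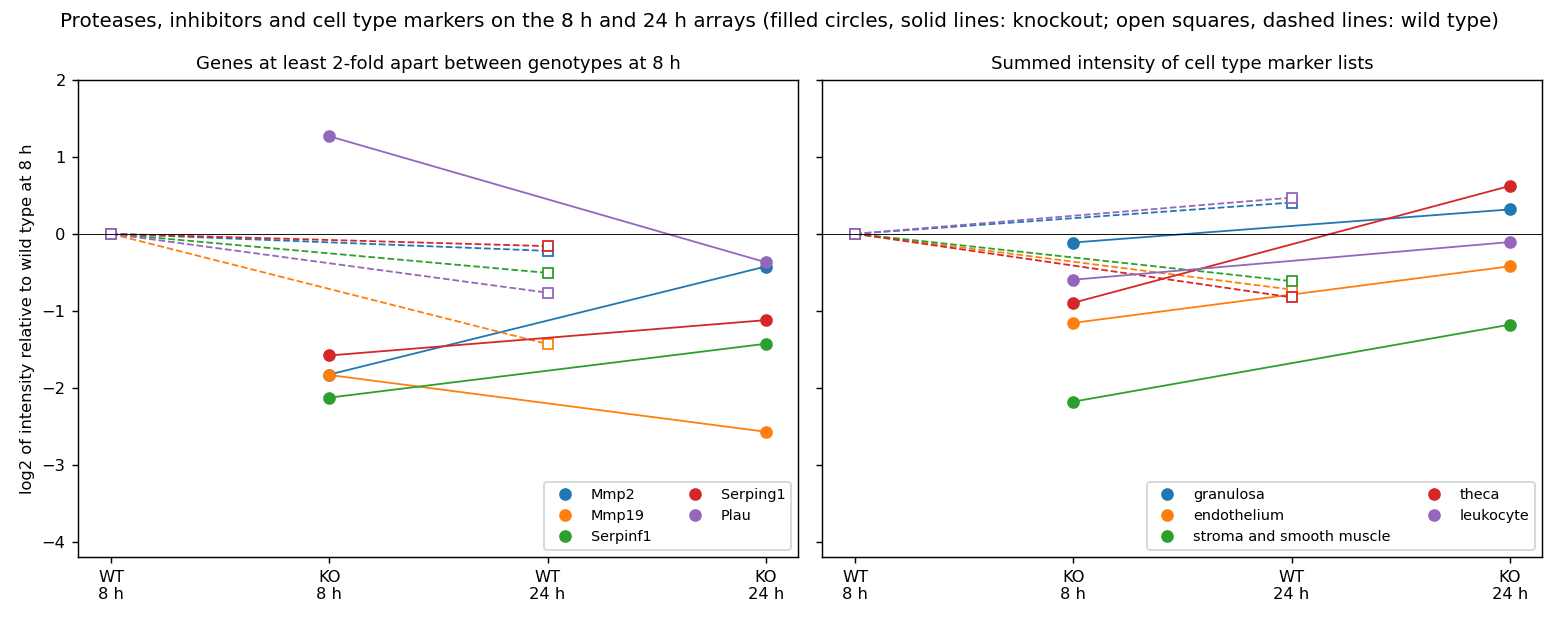
Log2 intensity relative to the wild-type array at 8 h, for the 5 protease and serpin genes apart at 8 h (left) and for the summed intensity of 5 cell type marker lists (right); filled circles and solid lines are the knockout, open squares and dashed lines wild type. Mmp2, Serpinf1 and Serping1 lay lower in the knockout at 8 h than in wild type, as did the stroma and endothelium sums, while the granulosa sum was 41167 and 38072.

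By 24 h, when granulosa cells luteinize, the TIMP family and Mmp11 held the 4 largest genotype differences. Timp4 and Timp3 were lower in the knockout, and Mmp11 and Timp2 were higher. In all, 4 of 39 genes above the floor were lower and 3 higher. Across 13052 genes, 3.92% were lower and 3.13% higher, so 17.9% of the list passed against 7.04% of all genes. The median of the list was -0.14 and that of all genes 0.05.

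Timp4, a TIMP of restricted tissue range, had an intensity of 574 in wild type and 80 in 24 h knockout cells, 7.18-fold lower. The other Timp4 probe set gave 726 and 87. At 8 h both genotypes were near the floor, at 18 and 28. Timp3, the TIMP that binds to the matrix, was 955 and 354 at 24 h, 2.70-fold lower. Other Timp3 probe sets gave 911 against 400 and 270 against 104, both past 2-fold, and 36 against 18, where the knockout value was under the floor. At 8 h Timp3 had been 440 and 235, a log2 difference of -0.90.

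Timp2, which both inhibits MMPs and helps Mmp14 to activate Mmp2, went the other way. At 24 h it stood at 757 in wild type and 1968 in the knockout, 2.60-fold higher. Further probe sets gave 593 and 1792, and 361 and 1163. Another, at 137 and 225, was higher by less than 2-fold, and the remaining ones were at or under the floor, at 22 and 16 and at 8 and 10. Averaged over its probe sets, Timp2 differed by 0.87 in log2, which is under 2-fold. Timp1 was 2898 and 2477, a difference of -0.23.

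**Figure D3:**
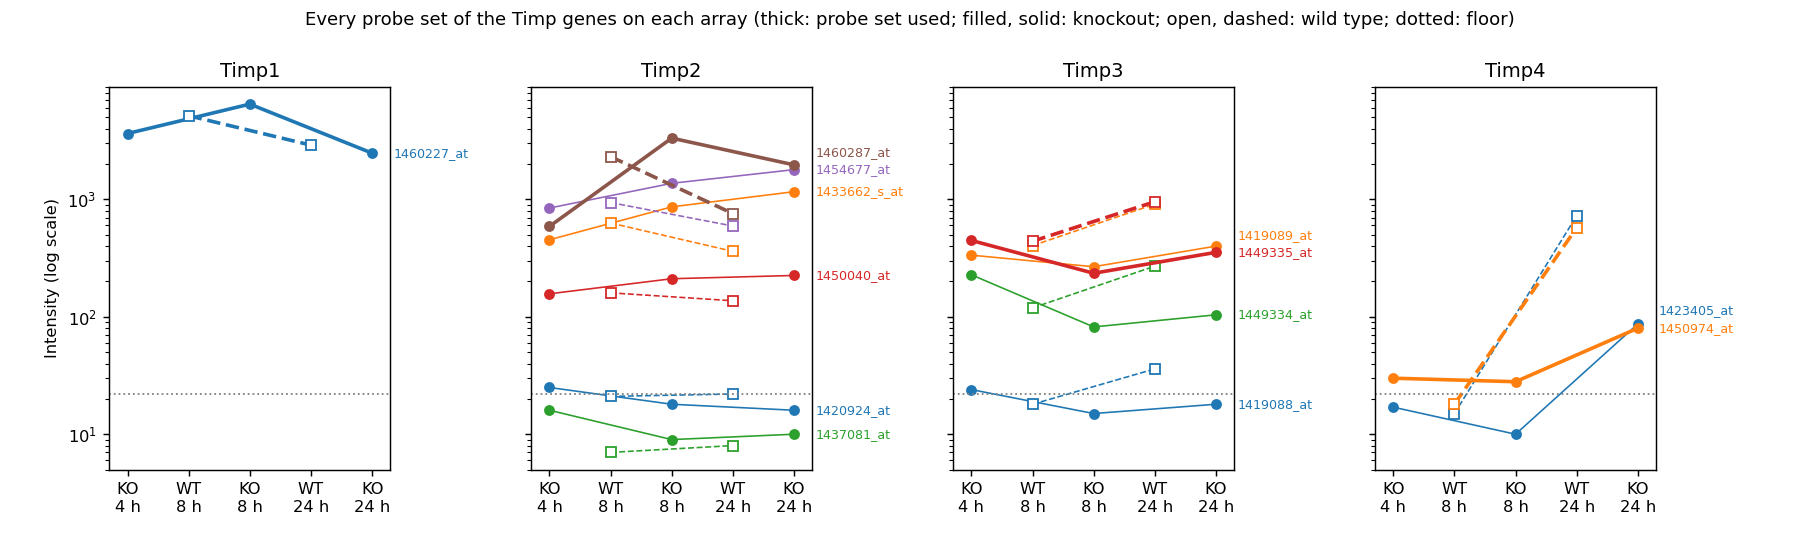
Intensity (log scale) of every probe set of Timp1, Timp2, Timp3 and Timp4 on the 5 arrays; the thick lines are the probe sets used, filled circles and solid lines the knockout, open squares and dashed lines wild type, and the dotted line the floor of 22. Both Timp4 probe sets were highest in wild type at 24 h (574 and 726), and 3 of the 6 Timp2 probe sets, at 757, 593 and 361 in wild type, stood at 1968, 1792 and 1163 in the knockout.

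Mmp11, or stromelysin 3, an MMP that is activated inside the cell by furin-like proteases, rose to 1474 in wild type and to 5873 in 24 h knockout cells, 3.98-fold higher. At 8 h it had been 604 and 1029, a log2 difference of 0.77, so the knockout lay above wild type at both times. Mmp11 has a single probe set here, so no second probe set bears on this value. Mmp23 was 764 and 1326, a difference of 0.80. Mmp2 was 350 and 304 at 24 h and no longer apart, and Mmp19 was 33 and 15, at least 1.5-fold lower. Mmp19 was the gene of the list past the rule at both times in the same direction. Raising values under the floor to the floor brought its 24 h difference to -0.58 and ended that call.

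Adamts9, a proteoglycan-cleaving ADAMTS, gave 394 in wild type and 899 in 24 h knockout cells, 2.28-fold higher. Its other probe sets did not follow, with 80 and 78 on one and 48 and 55 on another. The mean of the probe sets gave a log2 difference of 0.45, which ends the call. Adamts1 was 2930 and 2859, Adamts4 142 and 140, and Adamts5 196 and 291. Serpina3n was 66 and 31, 2.13-fold lower, and Serpinf1 (596 and 315) and Serping1 (436 and 224) lay below wild type by log2 values of -0.92 and -0.96. Serping1 reached -1.01 after median centring, and Serpinf1 -1.01 when its probe sets were averaged.

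On the probe sets used, no gene of the cathepsin class passed 2-fold between genotypes at 24 h. The values of all 8 lay below wild type, with a median log2 difference of -0.31, where 5707 of 13052 genes lay below it. Ctsd, the lysosomal aspartic protease, was 2925 in wild-type and 1554 in knockout cells, a difference of -0.91. Ctsb, a cysteine cathepsin, was 4629 and 2922, at -0.66, and Ctsl, the surge-induced cysteine cathepsin, 14746 and 12116, at -0.28. A dimmer probe set of Ctsb was past 2-fold, at 2596 and 468 (-2.47), and its remaining ones were not. Cst3, the secreted inhibitor cystatin C, was nearly level at 3604 and 3517. Ctsh was 629 and 530, and its other probe set lay the other way, at 293 and 365. The dimmer probe set of Ctsl also lay above wild type in the knockout, at 149 and 207, a difference of 0.47. At 8 h 5 of the 8 genes had been below wild type, with a median of -0.33.

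At 24 h 3 of 15 stroma and smooth muscle markers were lower in the knockout, and 14 had values below wild type. The sums of this list were 19631 in wild type and 13267 in the knockout. Of 11 endothelial markers 3 were lower and 1 higher, and 10 had values below wild type. Their sums were 1553 and 1915, and 1265 and 635 without Ramp2 (288 and 1280). Theca sums were 3723 and 10139, and 1423 and 1603 without Aldh1a1 (2300 and 8536). Leukocyte sums were 2381 and 1597, with 3 of 14 markers lower. The granulosa sums were 54542 and 51271, and 35134 and 38979 without Cyp11a1. The part of these cells in the 24 h differences was not tested.

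**Figure D4:**
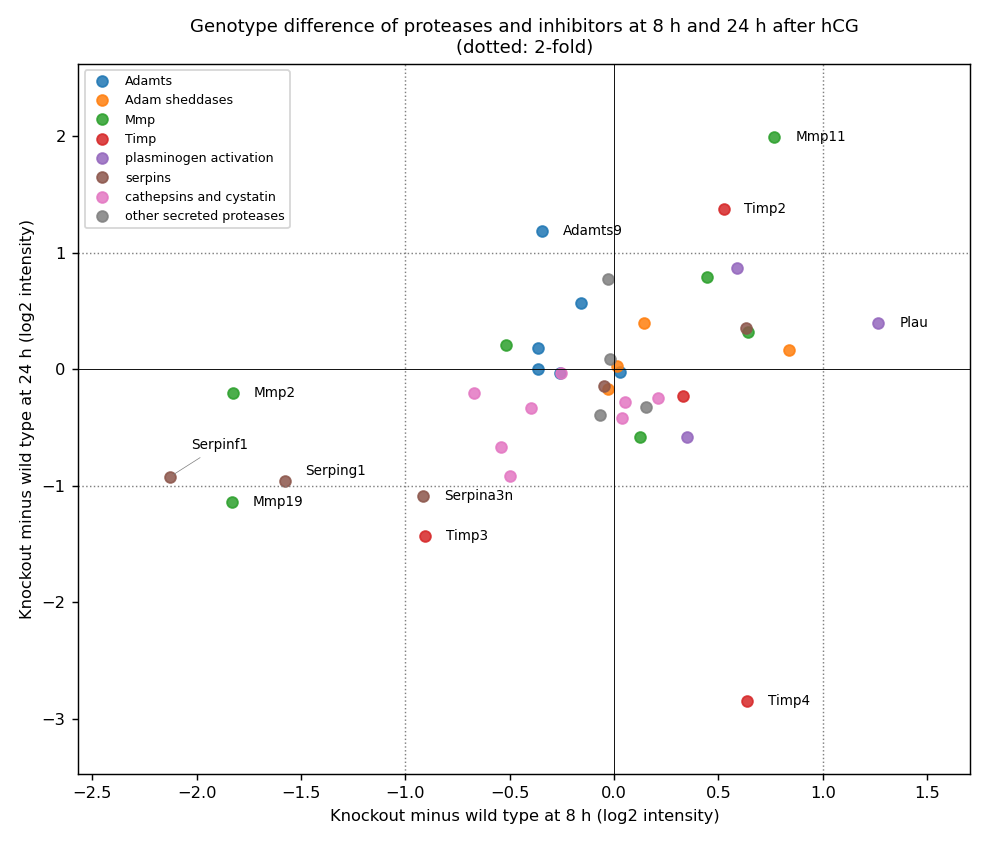
Knockout minus wild type in log2 intensity at 8 h (horizontal axis) and at 24 h (vertical axis) for the 41 genes, coloured by class; the dotted lines mark 2-fold, and genes past the rule at either time are named. Mmp11, Timp2 and Adamts9 lie above the upper line, Timp3, Serpina3n, Mmp19 and Timp4 below the lower one, and Mmp2, Serpinf1 and Serping1 to the left.

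The promoters of the genes with the 4 largest genotype differences at 24 h, and of Adam8, which fell furthest with time in both genotypes, are shown with the sequences searched for in them. Each is the 250 bases before the gene's start, 5′ to 3′ on the gene's strand, from RefSeq on GRCm38.p6. Capitals mark matches on either strand to a C/EBP-like pattern, TTNNGNAA, and to the GC box GGGCGG. On the other strand these read TTNCNNAA and, for the GC box, CCGCCC. No matches overlap in these windows. The AP-1 pattern TGANTCA, the same on both strands, was searched too and is in none of the 5.
Mmp11 (chr10:75932503-75932752, minus strand): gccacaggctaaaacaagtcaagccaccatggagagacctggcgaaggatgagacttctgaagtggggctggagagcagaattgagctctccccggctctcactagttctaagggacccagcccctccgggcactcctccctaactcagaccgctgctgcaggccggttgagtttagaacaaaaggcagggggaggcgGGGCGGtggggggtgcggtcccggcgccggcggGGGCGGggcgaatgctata
Timp2 (chr11:118355412-118355661, minus strand): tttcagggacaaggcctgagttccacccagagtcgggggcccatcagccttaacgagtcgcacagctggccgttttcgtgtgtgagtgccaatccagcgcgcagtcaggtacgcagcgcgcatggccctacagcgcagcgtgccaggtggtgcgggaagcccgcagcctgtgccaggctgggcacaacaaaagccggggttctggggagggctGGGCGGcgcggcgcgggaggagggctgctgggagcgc
Timp3 (chr10:86300162-86300411, plus strand): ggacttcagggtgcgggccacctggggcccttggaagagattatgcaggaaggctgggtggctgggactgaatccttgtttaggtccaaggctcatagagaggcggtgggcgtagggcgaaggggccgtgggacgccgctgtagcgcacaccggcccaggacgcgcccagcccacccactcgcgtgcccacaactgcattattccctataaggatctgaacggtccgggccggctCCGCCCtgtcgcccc
Timp4 (chr6:115252206-115252455, minus strand): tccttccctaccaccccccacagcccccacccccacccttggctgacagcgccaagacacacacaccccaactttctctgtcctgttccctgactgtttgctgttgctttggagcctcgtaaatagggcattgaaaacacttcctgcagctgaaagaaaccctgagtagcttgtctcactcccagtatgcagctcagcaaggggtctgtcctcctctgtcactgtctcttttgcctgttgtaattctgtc
Adam8 (chr7:139992563-139992812, minus strand): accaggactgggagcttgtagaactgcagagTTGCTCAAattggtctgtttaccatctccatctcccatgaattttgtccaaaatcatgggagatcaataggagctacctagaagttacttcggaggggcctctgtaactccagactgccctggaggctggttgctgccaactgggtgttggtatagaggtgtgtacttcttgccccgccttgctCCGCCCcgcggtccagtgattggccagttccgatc

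Of the 44 genes, 28 had a promoter in the RefSeq table, in 31 windows. TTNNGNAA was in 22.6% of these windows and in 36.8% of all 32851 windows of that length. The genes with it were Adam8, Timp1, Plaur, Serpina3n, Serpinb6a, Ctsk and Ctsl. GGGCGG was in 67.7% of the windows of the list and in 32.7% of all windows, and TGANTCA in 3.23% and 6.75%, with Plaur as its single gene. Mmp11, Timp2, Timp3 and Timp4, whose intensities differed between genotypes at 24 h, held no TTNNGNAA in the window. Mmp11 had 2 GC boxes, Timp2 and Timp3 had 1 each, and Timp4 had none. A match is a string of letters and not a binding site, and its absence says only that these letters are not in the window.

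From 8 to 24 h after hCG, Adam8 and Pappa fell in both genotypes, and Mmp11, Lgmn, Htra3 and Timp4 rose in both. In wild type 7 of 39 genes were lower at 24 h and 6 higher, where 6.45% of 13054 genes were lower and 5.55% higher. Among knockout arrays 5 of 39 were lower and 6 higher, where 5.26% of 12999 genes were lower and 6.85% higher. That is 33.3% of the list in wild type against 12% of all genes, and 28.2% in the knockout against 12.1%. Of the genes past the rule, 6 passed in the same direction in both genotypes, 7 in wild type alone and 5 in the knockout alone. None passed in opposite directions.

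Markers of the cells moved on the same arrays. From 8 to 24 h in wild type, 7 of 15 stroma and smooth muscle markers were lower (sum 30044 and 19631), as were 4 of 6 theca and 3 of 12 endothelial markers, while 4 of 9 granulosa and 2 of 14 leukocyte markers were higher. In the knockout 5 of 15 stroma and smooth muscle markers and 4 of 9 granulosa markers were higher, 3 of 15 leukocyte markers were higher and 1 lower, and of the endothelial and theca lists 1 marker each was higher and 1 lower. Their part in the changes over time was not tested.

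Adam8, an ADAM family sheddase also known from leukocytes, fell from 707 to 57 in wild type, 12.4-fold, and from 1262 to 64 in the knockout, 19.7-fold. Pappa, which cleaves the binding proteins of insulin-like growth factors, fell from 143 to 49 in wild type, 2.92-fold, and from 141 to 52 in the knockout, 2.71-fold. A mean over its probe sets brought both falls of Pappa under 2-fold, to log2 values of -0.78 and -0.73. At 24 h the genotypes were close for both genes.

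Mmp11, Lgmn, Htra3 and Timp4 rose in both genotypes. Mmp11 went from 604 to 1474 in wild type and from 1029 to 5873 in the knockout, 2.44- and 5.71-fold. Lgmn, the asparaginyl endopeptidase legumain, went from 919 to 2910 and from 577 to 2534, 3.17- and 4.39-fold. Htra3, a secreted serine protease of the HtrA family, went from 212 to 882 and from 202 to 673, 4.16- and 3.33-fold, and in the knockout under 2-fold (0.72 in log2) with the mean of its probe sets. Timp4 went from 18 to 574 in wild type, at least 26.1-fold, and from 28 to 80 in the knockout, 2.86-fold.

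Among genes past 2-fold in wild type alone, Adamts9 fell 5.32-fold, from 2097 to 394, against 1649 to 899 in the knockout, a log2 change of -0.88. On its other probe sets Adamts9 fell past 2-fold in the knockout too, from 1267 to 78 and from 117 to 55, and the mean of its probe sets fell by 2.57 in wild type and by 2.0 in the knockout on the log2 scale. Adamts1 fell from 5871 to 2930, 2.0-fold, against 4904 to 2859 in the knockout. Timp2 fell from 2312 to 757, 3.05-fold, against 3326 to 1968. Its other probe sets above the floor did not fall in the knockout, going from 864 to 1163, from 1371 to 1792 and from 211 to 225. Plat fell from 951 to 473, 2.01-fold, against 1430 to 864, and Mmp19 fell from 89 to 33, 2.70-fold. Timp3 rose from 440 to 955, 2.17-fold, against 235 to 354, and Ctsd rose from 1314 to 2925, 2.23-fold, against 929 to 1554. On the probe sets used, each of these 7 genes moved the same way in the knockout by less than 2-fold. The falls of Adamts1 and Plat were at the edge of the rule and lost it after median centring (log2 -0.96 each), and those of Mmp19, Timp2 and Plat lost it with the mean of the probe sets.

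In the knockout alone, Plau fell 3.11-fold, from 895 to 288, against 372 to 219 in wild type. Plaur fell from 208 to 78, 2.67-fold, against 163 to 117, and Timp1, a broad MMP inhibitor, from 6479 to 2477, 2.62-fold, against 5160 to 2898. Mmp23, a membrane-anchored MMP, rose from 580 to 1326, 2.29-fold, against 426 to 764, and by 0.89 in log2, under 2-fold, with the less specific probe sets left out. Mmp2 rose from 115 to 304, 2.64-fold, where wild type stood at 408 and 350. On the same knockout arrays the stroma and smooth muscle sum went from 6636 to 13267, and its part in the rise of Mmp2 was not tested.

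**Figure D5:**
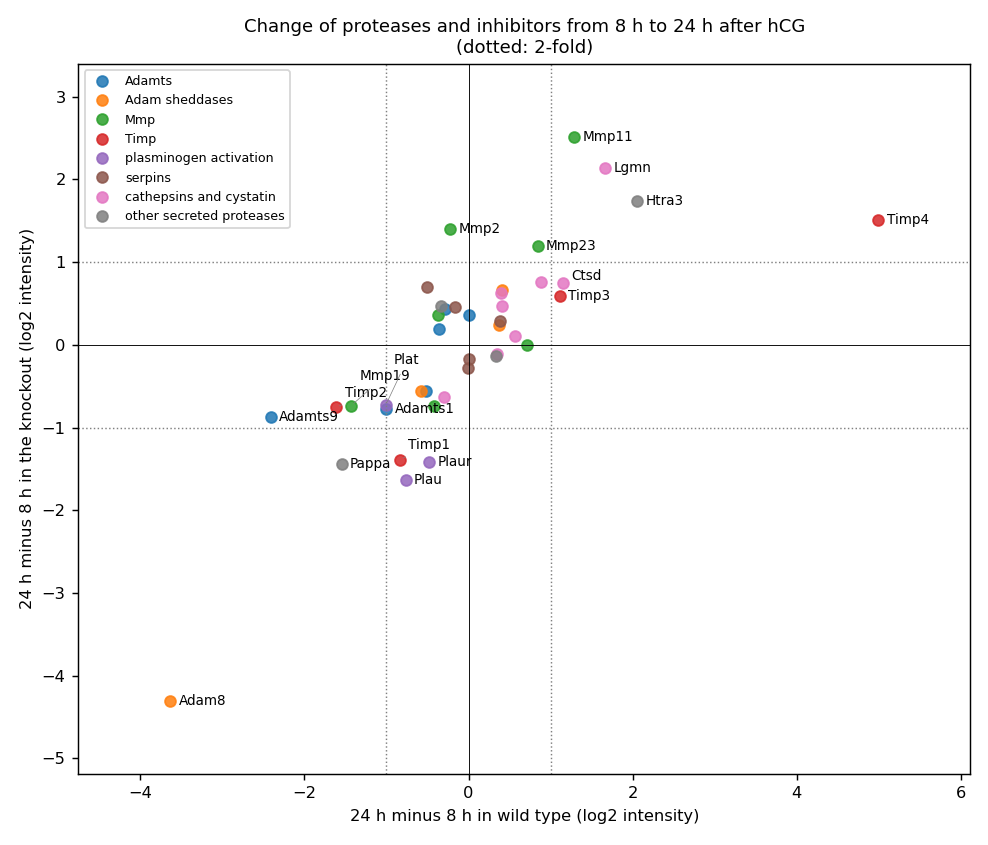
Change from 8 to 24 h in log2 intensity in wild type (horizontal axis) and in the knockout (vertical axis) for the 41 genes, coloured by class; the dotted lines mark 2-fold, and genes past the rule in either genotype are named. Adam8 and Pappa lie below 2-fold in both, Mmp11, Lgmn, Htra3 and Timp4 above it in both, and Timp4, at 18 in wild type at 8 h and so under the floor, is drawn at its measured change, the bound being at least 26.1-fold in wild type against 2.86-fold in the knockout.

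The change from 8 to 24 h differed between genotypes by at least 2-fold for 5 of 39 genes. Across 13316 genes, 5.04% differed upward in the knockout and 3.09% downward, against 4 and 1 of the list. The 5 genes are 12.8% of the list, and 8.13% of all genes passed in either direction. Timp4 rose at least 26.1-fold in wild type, from a value under the floor, and 2.86-fold in the knockout. With that value raised to the floor, the changes of Timp4 were 4.71 and 1.51 in log2 and differed by -3.19. Mmp2 differed by 1.62, Adamts9 by 1.54, Mmp11 by 1.23 and Serpinf1 by 1.21. The Timp4 and Mmp2 differences were also past 2-fold on their second probe sets. Adamts9 and Serpinf1 fell to 0.58 and 0.91 with the mean of their probe sets. These differences rest on the same 4 arrays as the comparisons above and are not separate evidence.

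Median centring moved the split of this comparison over all genes from 671 higher and 412 lower to 531 and 507. The list had 4 higher and 1 lower as reported and 4 and 2 after centring, when Plaur joined at -1.03. Stroma and smooth muscle markers passed upward in 13 of 15, theca markers in 4 of 6 and endothelial markers in 4 of 12. Their part in the differences of Mmp2 and Serpinf1 was not tested.

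Between 4 and 8 h, in the knockout, 9 of 40 genes above the floor were higher at 8 h and 7 lower after quantile scaling, 40% of the list. Over 13747 genes, 17.9% were higher and 11.9% lower, 29.8% together, so this contrast moved much of the array. Timp2 had the largest rise at 3.27 in log2, from a deposited intensity of 589 to 3326, and Plau rose by 3.12, from 168 to 895. Other Timp2 probe sets went from a deposited 453 to 864, 844 to 1371 and 157 to 211, each under 2-fold on that scale. Its dimmest went from 25 to 18 and from 16 to 9. Mmp11 (398 and 1029) rose by 2.12, Mmp19 (15 and 25) by 1.78, Timp1 (3639 and 6479) by 1.70, Htra3 (108 and 202) by 1.60 and Adamts1 (4009 and 4904) by 1.14. Ctsz and Mmp14 rose by 1.08 and 1.07. With the mean of its probe sets Htra3 was at -0.062, so its rise turned, and that of Mmp14 fell under 2-fold. Without a wild type at 4 h these values cannot be set against a control.

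Pappa fell furthest over these hours, by 3.17 in log2 after scaling, from a deposited 2261 at 4 h to 141. Ctsk, the collagen-cleaving cathepsin, fell by 1.40, Ctsb by 1.36, Ctsh by 1.22, Mmp9 by 1.09, Mmp2 by 1.02 and Htra1 by 1.02. On the deposited scale, where the median of all genes was -0.78, 3 genes of the list were higher at 8 h and 18 lower, against 838 higher and 6062 lower of all genes. Timp2, Plau and Mmp11 were higher on either scale with the probe sets used. The falls of Mmp9, Mmp2 and Htra1 were past 2-fold with the chosen probe sets but not with the mean of the probe sets, where Mmp9 was at -0.58, Mmp2 just short of -1 and Htra1 at -0.95. Mmp19 (deposited 15 and 25) and Mmp9 (45 and 12) were each under the floor on 1 of the 2 arrays, and Mmp19 was close to it on the other. Both were under 2-fold once values under the floor were raised to it, at 0.41 and -0.46.

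Other genes that passed in the later comparisons had these values on the 4 h array, on its own scale. Adam8 was at 1117, Adamts9 at 2291 and Mmp23 at 1285. Timp3 was at 447 and Timp4 at 30. Plat was at 4387 and Plaur at 266. Serpina3n, Serpinf1 and Serping1 were at 40, 159 and 367, and Lgmn and Ctsd at 1275 and 1710.

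With the probe sets used, 20 of the 41 genes passed 2-fold in none of the 5 comparisons of the 8 and 24 h arrays. The other 21 passed in at least 1. The former are Adamts4, Adamts5, Adamts10 and Adamts15, the sheddases Adam9, Adam10 and Adam17, and Mmp9, Mmp14 and Mmp16. Serpinb6a, Serpinh1, Ctsb, Ctsh, Ctsk, Ctsl, Ctsz, Cst3, Htra1 and Bmp1 make up the rest. Dimmer probe sets of some of these genes did pass 2-fold over time. Some of Ctsb went from 80 to 190, 104 to 254 and 971 to 2596 in wild type. In the knockout these went from 52 to 154 and 71 to 185, and stayed at 468. A dimmer Adamts4 probe set fell from 105 to 37 in wild type and, under 2-fold, from 95 to 53 in the knockout. That of Ctsl fell from 565 to 149 in wild type and went from 166 to 207 in the knockout. Adamts15 was under the floor on every array, at 14 to 19, and Mmp9, the other gelatinase, was at 11 to 18 on these 4 arrays and at 45 in the knockout at 4 h. Adam10 and Adam17, which release membrane-bound growth factors, ran from 1444 to 2530 and from 882 to 1166. Adam9, a relative of theirs, was 1801 and 1821 at 8 h and 1208 and 1235 at 24 h. Mmp14, the membrane-bound activator of Mmp2, stayed between 819 and 1174, and Bmp1, which trims procollagen, between 425 and 726. A dimmer Mmp14 probe set was past 2-fold at 24 h, at 66 in wild type and 32 in the knockout. Another gave 219 and 215. Not reaching 2-fold on single arrays does not show that these genes were equal.

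A wider list of other proteases, inhibitors and substrates, also drawn up with results of these data known, gave 7 lower and 3 higher of 64 genes above the floor at 8 h, against 4.05% and 1.58% of all genes. The largest difference there was in Igfbp4, a substrate of Pappa, at 2385 in wild type and 331 in the knockout, 7.21-fold lower. Serpinb9, a granzyme B inhibitor, was 512 and 2290, 4.47-fold higher, the proteoglycan gene Dcn 4.48-fold lower, and Tfpi2, a Kunitz-type inhibitor, 2.98-fold lower. At 24 h 8 of 65 were lower and 1 higher, against 3.92% and 3.13% of all genes. Mmel1, a neprilysin-like peptidase, was 601 and 30, 20.0-fold lower, Igfbp4 was 5.62-fold lower at 2300 and 409, Adamtsl4, an ADAMTS-like protein without protease activity, 5.06-fold lower, and Stc2, a stanniocalcin that blocks Pappa, 4.31-fold lower.

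Over time, 10 of 67 genes of the wider list were higher at 24 h in wild type and 13 lower, and in the knockout 8 of 66 were higher and 13 lower. Over all genes these shares were 5.55% and 6.45% in wild type and 6.85% and 5.26% in the knockout. Vcan, the versican that ADAMTS proteases cleave, fell from 12030 to 1259 in wild type and from 13654 to 1395 in the knockout, 9.56- and 9.79-fold. Adamts3, a procollagen protease, fell from 250 to 18 in wild type, at least 11.4-fold, and from 300 to 26 in the knockout, 11.5-fold. Mmel1 rose 21.5-fold in wild type, from 28 to 601, and stood at 13 and 30 in the knockout. Adamtsl4 rose 12.3-fold in wild type, from 45 to 552, and 3.41-fold in the knockout. The proprotein convertase Pcsk5 fell 2.83-fold in wild type, from 7320 to 2589, and 5.46-fold in the knockout, from 4993 to 915. Serpinb2, an inhibitor of plasminogen activators, went from 111 to 11 in wild type, at least 5.05-fold lower. In the knockout Serpinb2 went from 57 to 7, at least 2.59-fold lower, with both 24 h values under the floor. Stc1, another stanniocalcin, fell 11.4-fold in wild type and 2.87-fold in the knockout, from 717 to 63 and from 258 to 90. The change differed between genotypes by 2-fold in 9 of 68 genes, 3 upward and 6 downward, against 5.04% and 3.09% of all genes. Stc1 differed by 1.99, Adamtsl4 by -1.85 and Stc2 by -1.69, and Mmel1 was among the 6, with an 8 h knockout value under the floor.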

How the data were processed

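The authors' deposited table holds intensities, 1 column per array. Affy and RMA are named, without versions, in the submitters' processing notes. The deposited intensities are whole numbers from 4 to 56432, so they were taken to be linear and log2 was computed here. A genome build is not named in the sources used. Groups were taken from the sample titles, 1 array each, so the number of arrays limits the precision. Of 45101 probe sets, 34958 had 1 gene symbol, 932 several and 9211 none listed, and symbols were updated through Entrez identifiers with a RefSeq table (34754 matched). The 41 genes described here had 90 probe sets, 14 genes having a single one.

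The comparisons are log2 differences between single arrays under the size rule given above, computed with Python 3.11.15, numpy 2.4.6 and pandas 2.3.3. The size rule was run on simulated data, with changes larger than 2-fold planted in genes well above the floor. The noise there was assumed, so this checked the code and not the error of single arrays. Named genes are those of the list past the rule, others by class, and for the wider list up to 4 of largest difference per comparison. The list, the wider list, the markers and the tests were chosen with earlier results of these data known. Alternatives changed the probe set choice, scaling, floor and fold.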

Additional observations from a re-analysis of the deposited data

How the results depend on the processing

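Counts moved most with the fold required. At 1.5-fold, 14, 15, 24 and 14 genes of the list passed in the genotype comparisons at 8 h and 24 h, the knockout time course and the difference of changes, against 5, 7, 11 and 5 as reported. In the same comparisons 3, 2, 5 and 2 passed at 3-fold, with 6 of 13 in the wild-type time course and 7 of 16 from 4 to 8 h. Over all genes, 1.5-fold gave 1708, 2855, 3633, 3639, 7442 and 2961 for the genotype comparisons at 8 h and 24 h, the wild-type and knockout time courses, 4 to 8 h and the difference of changes. At 3-fold these were 269, 288, 588, 537, 1621 and 332. From 4 to 8 h the deposited scale gave 6900 genes against 4103, and Htra3 reversed there with the mean of its probe sets, to -0.062. The cause was not tested. The other settings kept the totals over both directions within 1.5 times. By direction, the mean of the probe sets gave 249 genes higher at 24 h against 408, and in the list 1 higher at 24 h against 3, 4 lower from 4 to 8 h against 7, and 2 higher and 2 lower in the difference of changes against 4 and 1. Median centring and quantile scaling also gave 2 lower in the last. Of the single values of the list, 14 lost the rule with the mean of the probe sets, 3 without the less specific probe sets, 3 after median centring, 3 when low values were raised to the floor (chosen after seeing the data), 1 under quantile scaling and, from 4 to 8 h, 6 on the deposited scale. Others came to pass it: 6 with the mean of the probe sets, 4 without the less specific ones and 3 after median centring. A further 1 did so with low values raised to the floor, 1 under quantile scaling and 11 on the deposited scale. A lower floor or none moved no call of the list. Whole-number rounding makes log2 values coarse near the floor. No paired analysis was possible because each group is 1 array.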

Other observations

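Adamts1 and Adamts5 are neighbours, with 0 protein-coding genes between them in the RefSeq table of GRCm38.p6. Adamts5, which cleaves aggrecan and versican, had 240 and 215 in wild type and knockout at 8 h, and 196 and 291 at 24 h, while Adamts1 was 5871 and 4904 and then 2930 and 2859. From 8 to 24 h Adamts1 fell by 1.0 and 0.78 on the log2 scale in wild type and knockout, and Adamts5 changed by -0.29 and 0.44.

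Dimmer probe sets of several cathepsin and sheddase genes departed from the brighter ones that represent them. For Ctsb, a dimmer probe set had 2596 in wild type and 468 in 24 h knockout cells, a log2 difference of -2.47, where the brightest gave 4629 and 2922. For Ctsl, the dimmer probe set went from 565 to 149 in wild type, where the brighter one went from 18123 to 14746. At 24 h a dimmer probe set of Adam10 had 290 in wild type and 98 in the knockout, and the brightest of the same gene 1919 and 2530. For Adam17 these were 113 and 38, and 1166 and 1040. For Adamts9, a probe set other than the brightest fell from 1403 to 80 in wild type and from 1267 to 78 in the knockout, with the genotypes level at both times. Which transcripts these probe sets detect was not tested.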
